A study of Mus musculus with 10 samples.

Results

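The collagen family was followed in mammary tumours of MMTV-PyMT mice with and without the rhomboid protease RHBDL4. Its members were the protein-coding genes whose mouse symbol is Col, a type number, the letter a and a chain number. This rule found 44 genes of the 57010 in the count table, and used no measured value. They comprised 11 fibrillar, 9 network-forming, 8 beaded filament, 9 fibril-associated (FACIT), 4 transmembrane and 2 multiplexin collagens and 1 anchoring fibril collagen. RNA came from whole tumour tissue of untreated mice, 5 weeks after tumour onset, from 5 libraries labelled PyMT; RHBDL4 -/- (knockout, KO) and 5 labelled PyMT; RHBDL4 +/+ (wild type, WT). All 10 tumours thus carry the PyMT oncogene, which the MMTV promoter drives in mammary epithelium. RHBDL4 is a protease of the endoplasmic reticulum membrane, encoded by Rhbdd1. The labels do not tie libraries to animals or say whether the knockout is of the whole animal, and p-values therefore reflect only how far these samples differ from each other, which can include technical spread.

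Collagens are trimers wound from alpha chains, made by 1 gene each, and they form the protein scaffold of connective tissue. Fibrillar collagens build the rope-like fibrils of stroma and are made mainly by fibroblasts, type IV collagens form the sheet of the basement membrane under epithelium and around vessels, and type VI collagen forms beaded filaments. Collagen chains are hydroxylated and folded in the endoplasmic reticulum before export, and dense collagen is a known feature of the stroma of breast tumours.

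Libraries held 25.7 to 43.3 M (mega) counts. Levels below are CPM, counts per M (mega) counts of the library size scaled by the TMM method over all 10 libraries, and folds come from edgeR's quasi-likelihood test with Benjamini-Hochberg adjustment over all genes tested. Rhbdd1 stood at 22.3, 15.1, 17.3, 13.2 and 16.8 CPM in KO replicates 1 to 5 and at 45.4, 38.6, 33.7, 33.5 and 25 CPM in WT replicates 1 to 5, so the groups did not overlap. WT replicate 5 stood apart from the other 9 libraries. Its skeletal muscle markers summed to 129557 CPM against at most 1457 CPM elsewhere, its adipocyte markers to 30984 CPM against at most 2798 CPM, and its luminal epithelial markers to 150 CPM against at least 4462 CPM. The epithelial marker Epcam was at 29.1 CPM there and at 1043 to 1594 CPM in the other libraries, so this library went against its label as mammary tumour tissue. Folds and tests are given with 10 libraries and again with the 9 that leave it out. Rhbdd1 had log2 fold changes of -1.05 ± 0.20 (SE, edgeR adjusted p = 0.669) and -1.14 ± 0.16 (edgeR adjusted p = 0.113). Its KO mean was 48.1% of the WT mean with 10 libraries and 45.4% with 9. The test used below thus did not call Rhbdd1, the gene knocked out, in either fit. Each library has a batch label of its own, so if those labels mark batches, batch and group cannot be told apart.

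Per kilobase of transcript, the 3 chains of types I and III led the family. Mean levels over the 10 libraries were 268 CPM per kb for Col3a1, 267 for Col1a1 and 228 for Col1a2. Type III is the collagen of fine reticular fibrils, and Col1a1 and Col1a2 encode the alpha 1 and alpha 2 chains of type I, the main protein of stromal fibrils. Next came chains that are better known from other tissues: Col9a1 at 101 and Col9a2 at 56.3 CPM per kb, members of the cartilage collagen type IX, ahead of Col6a1 (54.2), Col4a1 (52.8) and Col16a1 (52.4). In all, 20 members had at least 10 CPM per kb, 9 had 1 to 10, and 15 had less than 1. Cartilage and bone markers that are not collagens mostly did not share the level of Col9a1. Acan was at 0.663 CPM or less and Matn1 at 0.2 CPM or less in the 10 libraries, and Comp and Dmp1 reached 19.4 and 19.2 CPM. The transcription factor Sox9 stood at 180 to 263 CPM, and at 11.3 CPM in WT replicate 5.

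Collagens took 0.807, 1.04, 0.693, 0.52 and 1.24% of all counts in KO replicates 1 to 5. The shares in WT replicates 1 to 5 were 0.184, 0.43, 0.947, 0.97 and 0.707%. The groups overlap, and the lowest share, WT replicate 1, lies well under every other library. The make-up of these counts differed too. Col1a1, Col1a2 and Col3a1 supplied 52.1 to 59.5% of the collagen counts in the KO libraries, 58.5 and 53.6% in WT replicates 3 and 4, and 8.01, 32.7 and 71.3% in WT replicates 1, 2 and 5.

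**Figure D1:**
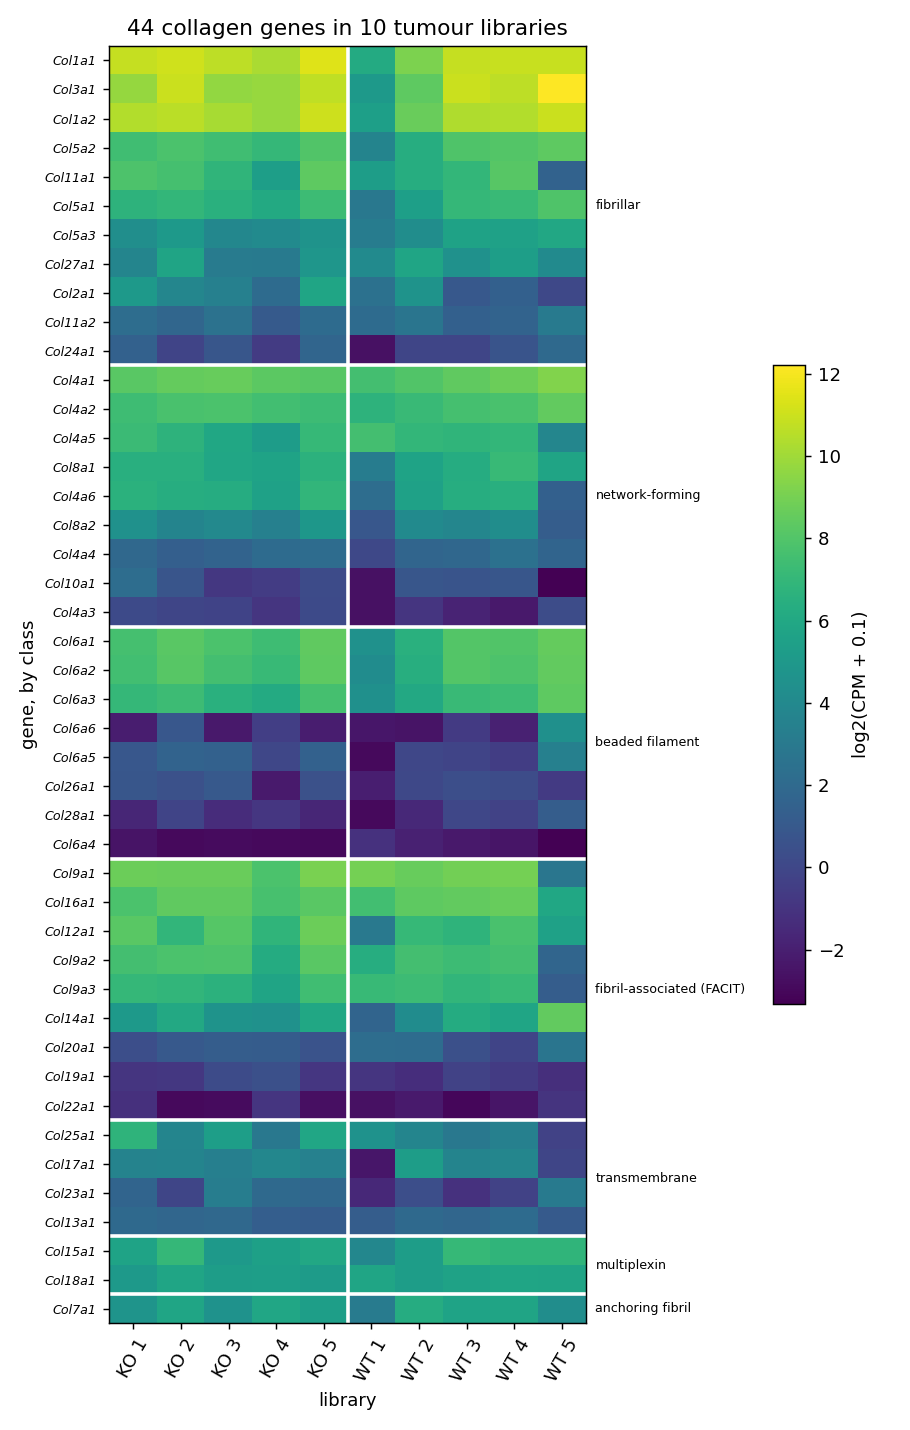
Level of the 44 collagen genes (rows, by class and then by mean level) in the 10 libraries (columns), coloured by log2(CPM + 0.1). Most of the fibrillar and beaded filament genes darken in WT 1, and Col9a1, Col9a2, Col9a3, Col11a1 and Col4a6 darken in WT 5.

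The stretches upstream of 4 genes are shown because these genes took different courses in WT replicates 1 and 5, as described below: Col3a1 and Col5a1 were low in replicate 1 and high in replicate 5, Col9a1 was kept in replicate 1 and nearly lost in replicate 5, and Col16a1 was low in both. The fifth is the whole stretch between the starts of Col4a4 and Col4a3, which are read in opposite directions. Each upstream stretch is the 100 bases before the RefSeq start on GRCm38.p6, written 5′ to 3′ along the gene (chr1:45311438-45311537, chr2:27886325-27886424, chr1:24177510-24177609 and chr4:130047740-130047839, all on the plus strand), and capitals mark GGGCGG, the core of the GC box. The last, on chr1:82586850-82586920, is 71 bases long and written along the minus strand, from Col4a3 towards Col4a4.
Col3a1: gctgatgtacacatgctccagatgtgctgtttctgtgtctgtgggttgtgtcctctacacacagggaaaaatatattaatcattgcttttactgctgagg
Col5a1: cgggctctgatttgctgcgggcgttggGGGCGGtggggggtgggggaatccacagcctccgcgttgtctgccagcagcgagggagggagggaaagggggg
Col9a1: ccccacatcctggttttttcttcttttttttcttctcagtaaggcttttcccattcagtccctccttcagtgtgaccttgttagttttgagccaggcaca
Col16a1: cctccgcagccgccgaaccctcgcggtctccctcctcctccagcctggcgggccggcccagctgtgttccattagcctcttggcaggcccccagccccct
Between Col4a3 and Col4a4: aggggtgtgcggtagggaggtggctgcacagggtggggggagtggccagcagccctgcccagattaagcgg
Of the 44 members, 35 had a start in the RefSeq table, with 38 starts. In the 250 bases before these starts, GGGCGG on either strand was present in 57.9%, against 32.7% of 32851 starts of all genes. CCAAT was present in 34.2% against 33.8%, and TATAAA in 13.2% against 12.4%. A match describes these letters only.

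Knockout was then compared with wild type for every member. No collagen gene passed the test, with all 10 libraries or with 9. Of the 44 members, 41 had enough counts to be tested and 3 (Col6a4, Col6a6 and Col22a1) did not. With 10 libraries, edgeR called 0 of the 41, as it called 0% of all 18577 genes, and the lowest adjusted p of a member was 0.669. DESeq2 called 0 members against 0.291% of all genes, and limma-voom with sample quality weights 0 against 0.0915%. At an unadjusted edgeR p under 0.05 there was 1 member (Col25a1) against 7% of all genes, and no member had groups that did not overlap, against 1.99% of all genes.

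Without WT replicate 5, edgeR called 0 of 41 members against 0.0105% of 19016 genes, with a lowest adjusted p of 0.286. An unadjusted edgeR p under 0.05 was reached by 4 members, all higher in knockout (Col23a1, Col4a3, Col6a5 and Col25a1), against 11.6% of all genes. One of these, Col6a5, had groups that did not overlap, against 5.44% of all genes. DESeq2 called 1 member (Col23a1) against 2.43% of all genes, and limma-voom with sample quality weights called 1 (Col4a3) against 0.752%. Of these 4 genes, 3 were under 1 CPM per kb and Col25a1 was at 4.32, and the abundant stromal chains were not among them.

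The family's median log2 fold change, knockout against wild type, was 0.10 with 10 libraries (all genes, -0.06) and 0.38 with 9 (all genes, 0.03). It was positive for 23 of 41 members (56.1%, against 43.8% of all genes) and for 27 of 41 (65.9%, against 53.2%). The second median rests on WT replicate 1, the library with the fewest collagen counts. With that library also left out, it was 0.03, the same as over all genes, and 23 of 42 members tested were positive (53.7% of all genes were). In those 8 libraries edgeR called 0 members (0% of 19548 genes), 6 had an unadjusted edgeR p under 0.05 (10.9% of all genes) and 1, again Col6a5, had groups without overlap (9.27% of all genes). The 6 were the 4 genes above, and Col5a3 and Col17a1 with log2 fold changes of -0.83 and -0.85.

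Log2 fold changes of collagen genes had larger standard errors than those of genes in general. These errors pool the spread in both groups and also grow at low counts. The median standard error of a member's log2 fold change was 0.67 with 10 libraries against 0.33 over all genes, and 0.60 against 0.25 with 9. It lay above the median of all genes for 37 of the 41 members tested with 10 libraries and for 36 with 9.

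**Figure D2:**
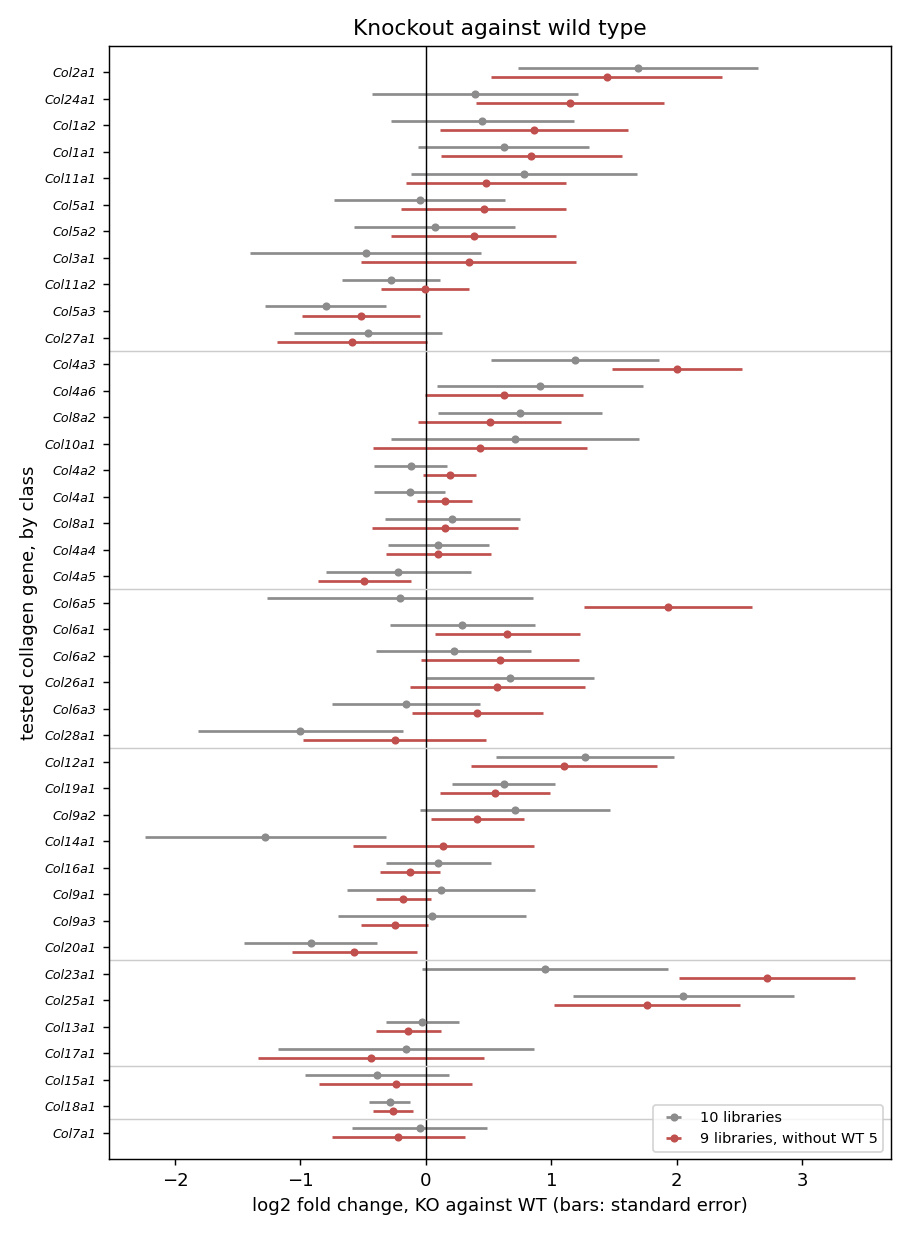
Log2 fold change of knockout against wild type for the 41 tested collagen genes, by class, with bars of 1 standard error from edgeR, in 10 libraries (grey) and in 9 without WT 5 (red). Most bars cross 0, and Col23a1, Col4a3 and Col6a5 stand farther right once WT 5 is left out.

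Among the fibrillar collagens, none of 11 tested genes reached an unadjusted p of 0.05 in either fit. Col1a1 (ENSMUSG00000001506) stood at 1811, 2143, 1615, 1196 and 2816 CPM in KO replicates 1 to 5 and at 70.8, 558, 1813, 1880 and 1919 CPM in WT replicates 1 to 5. The KO libraries and WT replicates 3 to 5 shared 1 range, with WT replicates 1 and 2, whose library names begin with the same number, below it. On the log2 scale the fold was 0.62 ± 0.68 (SE, edgeR adjusted p = 0.787) with 10 libraries and 0.84 ± 0.72 (edgeR adjusted p = 0.676) with 9. Col1a2 behaved alike, at 882 to 2125 CPM in KO and 42.5, 404, 1316, 1379 and 2015 CPM in WT, with log2 fold changes of 0.45 ± 0.73 and 0.86 ± 0.75.

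Col3a1 (ENSMUSG00000026043) stood at 861, 1966, 829, 885 and 1701 CPM in KO and at 32.9, 322, 2015, 1596 and 4725 CPM in WT replicates 1 to 5. Wild type thus held both the lowest and the highest library. The sign of its fold turned with WT replicate 5, from -0.48 ± 0.92 with 10 libraries to 0.34 ± 0.86 with 9 (edgeR adjusted p = 0.879 and 0.699). Type V collagen, which is built into type I fibrils and limits their width, also gave values on both sides of 0. Col5a1 (ENSMUSG00000026837) stood at 106, 126, 94.5, 70.3 and 159 CPM in KO and at 7.42, 44.3, 129, 146 and 248 CPM in WT (log2 fold changes of -0.05 ± 0.68 and 0.46 ± 0.66). Its partner Col5a2 was at 132 to 258 CPM in KO and 12.7 to 323 CPM in WT.

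Col2a1, the main fibrillar collagen of cartilage, had the largest positive fold of the class. It stood at 34.2, 13.8, 10.8, 4.19 and 54.8 CPM in KO and at 5.55, 25.5, 1.82, 2.58 and 0.934 CPM in WT. The groups overlap, since WT replicate 2 exceeds 3 KO libraries, and the log2 fold changes were 1.69 ± 0.96 and 1.44 ± 0.92 (edgeR adjusted p = 0.67 and 0.572). The remaining members of the class, Col5a3, Col11a1, Col11a2, Col24a1 and Col27a1, had log2 fold changes between -0.80 and 0.78 with 10 libraries and between -0.59 and 1.15 with 9.

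The sum of the markers of fibroblasts, the main source of fibrillar collagen, was also lowest in WT replicate 1, followed by WT replicate 2. The summed level of the 13 fibroblast markers was 428 to 954 CPM in KO and 52.9, 290, 947, 763 and 4672 CPM in WT replicates 1 to 5. Lumican (Lum) and decorin (Dcn), proteoglycans that bind fibrils and are among the 13 markers, were at 0.151 and 0.483 CPM in WT replicate 1. In every other library they were at 22.9 and 77.3 CPM or more. Not all markers fell as far: Pdgfrb was at 14.3 and 30 CPM in WT replicates 1 and 2, and Fap at 3.47 and 3.4 CPM. In WT replicate 5, with the highest marker sum, Col1a1 lay within the range of the other libraries and Col3a1 above it. In bulk tissue, fewer cells of a type and less RNA per cell cannot be told apart, and the part of fibroblast content in the collagen values was not tested.

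**Figure D3:**
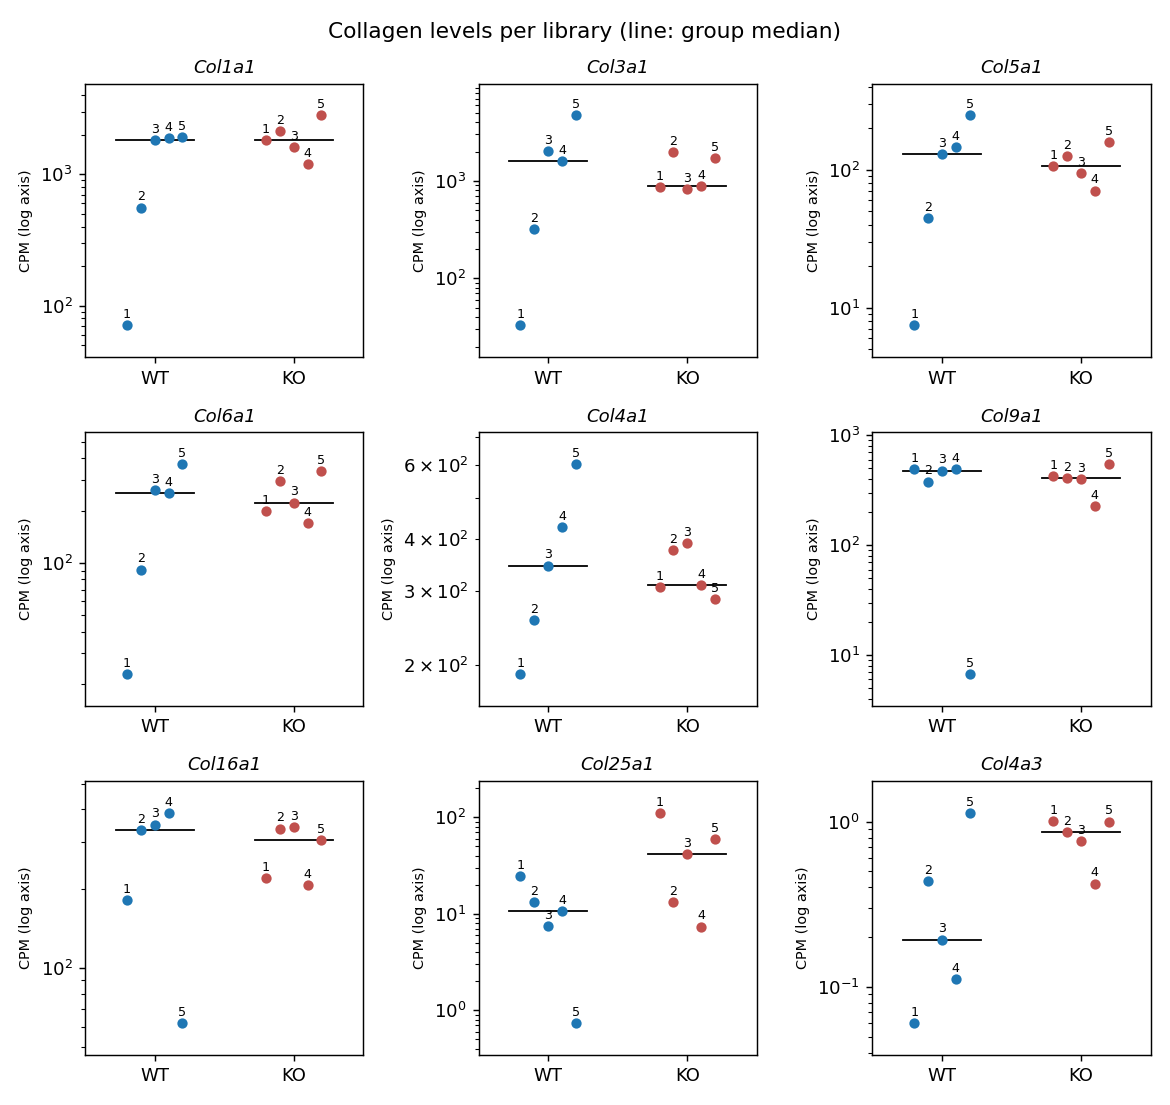
Level in CPM (log axes) of 9 collagen genes in each WT (blue) and KO (red) library, with replicate numbers beside the points and the group median as a line. WT 1 lies lowest for Col1a1, Col3a1, Col5a1, Col6a1, Col4a1 and Col4a3, and WT 5 lies lowest for Col9a1, Col16a1 and Col25a1.

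Network-forming collagens were steadier where they belong to the common basement membrane. Col4a1 and Col4a2, the chains found in nearly all basement membranes, are the most abundant of the class. Col4a1 stood at 307, 375, 390, 310 and 287 CPM in KO and at 190, 256, 345, 426 and 603 CPM in WT replicates 1 to 5. The KO values lie within the WT range, and the log2 fold change was -0.13 ± 0.28 with 10 libraries and 0.15 ± 0.22 with 9 (edgeR adjusted p = 0.897 and 0.822). Col4a2 gave -0.12 ± 0.29 and 0.19 ± 0.21. The starts of these 2 genes overlap by 22 bases in GENCODE M21 (GRCm38) on opposite strands, and which strand was counted is not stated in the labels or processing notes.

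Col4a3 (ENSMUSG00000079465), a chain of the basement membranes of kidney and lung, was rare throughout. It stood at 1.01, 0.868, 0.762, 0.422 and 1 CPM in KO and at 0.0603, 0.437, 0.193, 0.111 and 1.13 CPM in WT replicates 1 to 5. Without WT replicate 5, the highest of all, only KO replicate 4 overlapped with wild type, at WT replicate 2. Its log2 fold was 1.19 ± 0.67 with 10 libraries (edgeR adjusted p = 0.67) and 2.00 ± 0.52 with 9 (edgeR adjusted p = 0.287), where limma-voom with quality weights gave 2.39 and an adjusted p of 0.028. These levels rest on 2 to 38 counts per library.

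The call by limma-voom was not shared by edgeR or DESeq2. Col4a4 starts 71 bases from Col4a3 and its chain joins the same trimer. It stood at 2.45 to 4.35 CPM in KO and 0.935 to 5.41 CPM in WT, with a log2 fold change of 0.10 in both fits (SE 0.40 and 0.42). The stretch between both starts, printed above, held none of the 3 motifs searched.

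Col4a5 stood at 152, 104, 61.9, 38.4 and 136 CPM in KO and at 191, 126, 116, 125 and 13.6 CPM in WT replicates 1 to 5. WT replicate 1 was the highest library for this chain, though it was the lowest for Col4a1. The log2 fold change was -0.22 ± 0.58 with 10 libraries and -0.49 ± 0.37 with 9. The other chains of the class, Col4a6, Col8a1, Col8a2 and Col10a1, had log2 fold changes of 0.21 to 0.91 with 10 libraries and of 0.15 to 0.62 with 9.

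Type VI collagen forms the beaded filaments that link cells to the surrounding matrix. Col6a1 stood at 199, 296, 222, 169 and 338 CPM in KO and at 22.7, 91.3, 263, 252 and 371 CPM in WT replicates 1 to 5. The KO libraries lie within the WT range, and WT replicates 1 and 2 are again the lowest. Its log2 fold change was 0.29 ± 0.58 with 10 libraries and 0.65 ± 0.58 with 9 (edgeR adjusted p = 0.883 and 0.688), and Col6a2 gave 0.22 ± 0.62 and 0.59 ± 0.63. Col6a3, the large chain of the common trimer, gave -0.16 ± 0.59 and 0.41 ± 0.52.

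Col6a5 (ENSMUSG00000091345), an alternative chain to Col6a3, stood at 1.73, 3.01, 2.76, 0.904 and 2.76 CPM in KO. Its WT levels were 0.0302, 0.875, 0.816, 0.61 and 10.9 CPM in replicates 1 to 5. With WT replicate 5 left out, every KO library was above every WT library, by a margin of 0.904 against 0.875 CPM. The log2 fold change was -0.21 ± 1.06 with 10 libraries (edgeR adjusted p = 0.958) and 1.93 ± 0.67 with 9 (edgeR adjusted p = 0.343). The sign therefore rests on a library in which the beaded filament chains Col6a5 and Col6a6 were at 10.9 and 22.3 CPM, beside the muscle and fat markers given above. Col26a1 had log2 fold changes of 0.67 and 0.57, and Col28a1 was at 0.88 CPM or less outside WT replicate 5. Col6a4 reached at most 0.362 CPM.

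FACIT collagens sit on the surface of fibrils or link them to other matrix. The 3 chains of type IX were among the 10 highest of the family per length. Col9a1 (ENSMUSG00000026147) stood at 428, 408, 397, 227 and 549 CPM in KO and at 495, 380, 479, 493 and 6.67 CPM in WT replicates 1 to 5. Apart from WT replicate 5, all libraries lie between 227 and 549 CPM, and WT replicate 1, so low in type I, is among the highest. The log2 fold change was 0.12 ± 0.75 with 10 libraries and -0.18 ± 0.22 with 9 (edgeR adjusted p = 0.969 and 0.762). Col9a2 and Col9a3 fell to 3.27 and 2.27 CPM in WT replicate 5 and stood at 75.7 to 295 and 52.9 to 173 CPM elsewhere.

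Col16a1, a collagen of the fibril surface found in many tissues, stood at 220, 338, 342, 206 and 305 CPM in KO and at 181, 334, 350, 388 and 61.8 CPM in WT. The groups overlap, and the fold was 0.10 ± 0.42 and -0.13 ± 0.24 on the log2 scale. Col12a1, found on type I fibrils of dense tissue under tension, stood at 296, 119, 276, 115 and 427 CPM in KO and at 7.69, 133, 111, 211 and 47.3 CPM in WT replicates 1 to 5. KO replicates 1, 3 and 5 exceed all of wild type and the remaining KO libraries do not. Its log2 fold change was 1.27 ± 0.71 with 10 libraries and 1.10 ± 0.74 with 9 (edgeR adjusted p = 0.67 and 0.586).

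Col14a1, which binds fibrils in loose connective tissue, reached 351 CPM in WT replicate 5 against 3.05 to 73.5 CPM elsewhere. Its log2 fold change was -1.28 ± 0.96 with 10 libraries and 0.14 ± 0.72 with 9. Col19a1 and Col20a1, both at or under 6.34 CPM, had log2 fold changes of 0.62 and -0.92 with 10 libraries and 0.55 and -0.57 with 9.

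Transmembrane collagens are anchored in the cell membrane and shed. Col23a1 (ENSMUSG00000063564) stood at 3.17, 0.868, 9.51, 3.8 and 3.52 CPM in KO and at 0.241, 1.22, 0.365, 0.721 and 8.47 CPM in WT replicates 1 to 5. Among the 9 libraries, only KO replicate 2 lies within the wild-type range. The log2 fold change was 0.95 ± 0.98 with 10 libraries (edgeR adjusted p = 0.775) and 2.72 ± 0.70 with 9 (edgeR adjusted p = 0.286), where DESeq2 gave 2.72 and an adjusted p of 0.00388. Leaving out 1 further library in turn kept it between 2.17 and 3.23, with edgeR adjusted p from 0.215 to 0.575.

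Col25a1 (ENSMUSG00000058897), known from neurons and developing muscle, stood at 111, 13.2, 41.7, 7.35 and 59.5 CPM in KO and at 24.3, 13.3, 7.4, 10.6 and 0.734 CPM in WT. KO replicates 1, 3 and 5 lie above all of wild type and KO replicates 2 and 4 within it. The log2 fold change was 2.05 ± 0.88 with 10 libraries (unadjusted p = 0.0417, edgeR adjusted p = 0.669) and 1.76 ± 0.74 with 9 (edgeR adjusted p = 0.411).

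Col17a1, which fastens basal epithelial cells to the basement membrane in hemidesmosomes, ran from 10.3 to 14.3 CPM in KO. Its WT levels were 0.0905, 39.3, 13, 13.7 and 0.867 CPM. The outlying values are all wild type. The 8 markers of basal epithelium and myoepithelium, the cells that carry hemidesmosomes in the gland, summed to 224 to 389 CPM in KO and to 250, 899, 395, 477 and 140 CPM in WT replicates 1 to 5. They were highest in WT replicate 2, like Col17a1, and within the KO range in WT replicate 1, where the single markers differed: Krt5 was at 0.513 CPM, the lowest of the 10 libraries, and Oxtr at 41.6 CPM, the highest. Skin keratinocyte markers were also highest in WT replicate 2, at a sum of 118 CPM, and in KO replicate 4, at 102 CPM, against 16.3 to 26.6 CPM elsewhere, and the part of either list in the Col17a1 values was not tested. Col17a1 had log2 fold changes of -0.16 ± 1.02 and -0.44 ± 0.90, and Col13a1, at 2 to 4.24 CPM, of -0.03 ± 0.29 and -0.14 ± 0.26.

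The anchoring fibril gene Col7a1 ties the basement membrane to the dermis or stroma. It stood at 25.7, 55.8, 23.6, 59.2 and 41.1 CPM in KO and at 8.59, 79.1, 51.9, 54.6 and 19.1 CPM in WT, with log2 fold changes of -0.05 ± 0.54 and -0.22 ± 0.53. The multiplexins, basement-membrane collagens that carry sugar chains, had negative folds in both fits without passing the test. Col18a1, the source of endostatin, stood at 33, 55.6, 39.5, 41.8 and 37.4 CPM in KO and at 55.7, 40.6, 49.9, 55.1 and 52.8 CPM in WT. It had the smallest standard error of the 41 tested members, with log2 fold changes of -0.29 ± 0.16 and -0.26 ± 0.16 (edgeR adjusted p = 0.669 and 0.56). Col15a1 gave -0.39 ± 0.57 and -0.24 ± 0.61.

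The wild-type libraries 1 and 5 departed from the rest in different collagens. WT replicate 1 was compared with the other 8 libraries, WT replicate 5 left out. It lay below all 8 for 28 of the 41 tested members, against 18.7% of all genes, above all 8 for 2, against 13.9%, and within their range for 11. It held 2.61% of the median of the others for Col3a1, 3.13% for Col1a2, 3.87% for Col1a1 and 0.693% for Col17a1. Col4a1 stood at 57.2%, below the others. Col9a2 (42.3%), Col9a3 (109%), Col9a1 (116%) and Col18a1 (134%) lay within the range of the others, and Col4a5 (157%) and Col20a1 (262%) above it. As a result FACIT collagens supplied 50% of the collagen counts in this library and fibrillar collagens 13.2%. Its luminal epithelial markers, at a sum of 6544 CPM, were within the range of the KO libraries, and its blood endothelial markers, at 80.8 CPM, were the lowest of the 10.

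WT replicate 5 lay below the 9 others for 11 of the 41 members, against 36.5% of all genes, and above them for 16, against 32.3%. The 11 included all 3 type IX chains, at 1.56 to 1.74% of the median of the others, Col11a1 at 2.3% and Col4a6 at 3.32%. The 16 included Col3a1 at 534%, Col14a1 at 1100% and Col6a5 at 1203%. These places depend on the scaling. The TMM factor of WT replicate 5 was 0.5884, against 1.007 to 1.101 in the other libraries, which raises its CPM relative to theirs. Without scaling, collagens took 0.707% of its counts, within the range of the other libraries. How many members lie above the others without scaling was not counted. FACIT collagens supplied 3.95% of its collagen counts and fibrillar collagens 76.8%. For 4 genes both libraries lay at the bottom: Col10a1, Col11a1, Col16a1 and Col4a6 were below all the others in each comparison.

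**Figure D4:**
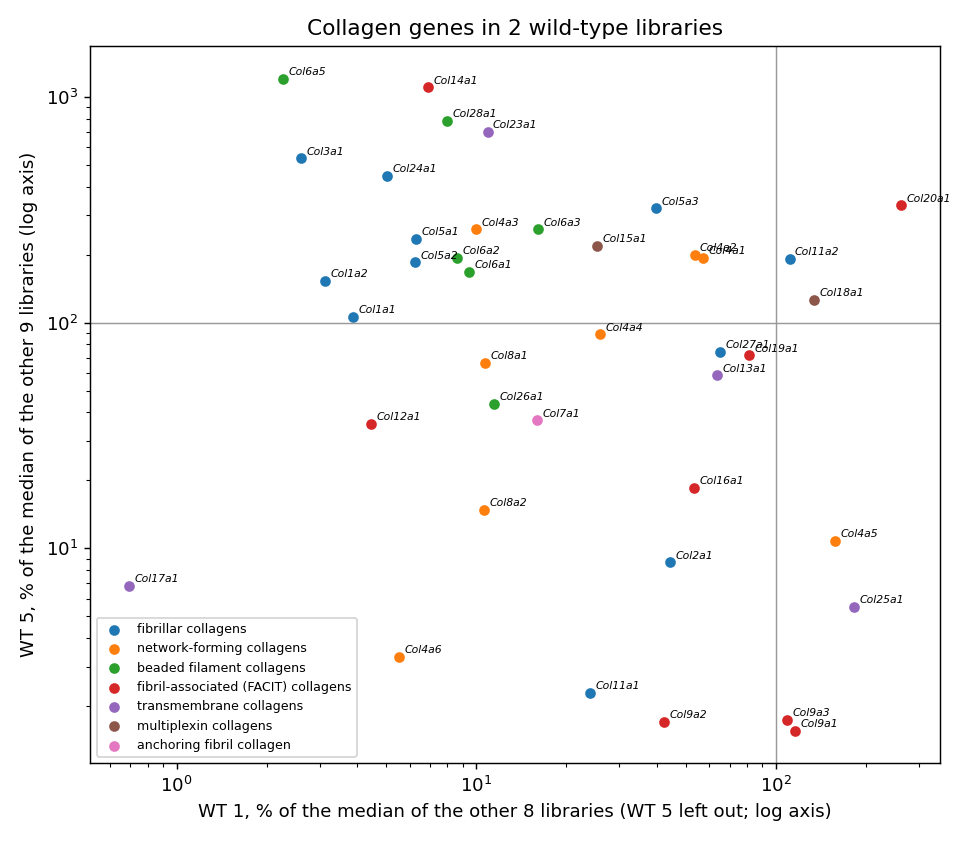
Level of each tested collagen gene in WT 1 as % of the median of the other 8 libraries (x axis, WT 5 left out) and in WT 5 as % of the median of the other 9 (y axis), both log axes, coloured by class. Col10a1, at 0 counts in WT 5, is not drawn. Fibrillar and beaded filament chains such as Col3a1 (2.61% and 534%) lie upper left, and Col9a1 (116% and 1.56%) lies lower right.

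Ratios of genes within a library do not depend on how the library is scaled, and 8 such ratios were compared between the groups by 2-sided exact permutation tests, adjusted over the 8. Of the pairs that share a trimer, 3 kept their ratio within a narrow range. Counts of Col4a2 per count of Col4a1 ran from 0.507 to 0.595 over all 10 libraries, Col6a2 per Col6a1 from 0.806 to 1.03, and Col5a2 per Col5a1 from 1.3 to 1.88. Col1a2 per Col1a1 ran from 0.709 to 0.756 in 8 libraries, with WT replicates 1 and 5 at 0.599 and 1.05. Per length of transcript, Col1a2 had a median of 0.809 of the level of Col1a1, where 1 alpha 2 chain joins each pair of alpha 1 chains in the type I trimer.

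The ratio of type V to type I was the one that differed most clearly between the groups. Counts of Col5a1 per count of Col1a1 were 0.0584, 0.0589, 0.0585, 0.0588 and 0.0566 in KO replicates 1 to 5 and 0.105, 0.0793, 0.071, 0.0779 and 0.129 in WT replicates 1 to 5. The groups did not overlap, and the KO libraries were nearly identical to each other. The mean log2 ratio was -4.10 ± 0.02 in KO and -3.47 ± 0.36 in WT (SD, n = 5 each), a difference of -0.63 (exact permutation p = 0.00794, the lowest possible with 5 libraries in each group, adjusted p = 0.0635). Without WT replicate 5 it was -0.50 (exact permutation p = 0.0159, again the lowest possible, adjusted p = 0.127). Neither passes 0.05 after adjustment over the 8 ratios. With this many libraries, 1 ratio alone at the lowest possible p could not pass, whatever the size of its difference. With libraries that share a leading number summed, the differences were -0.67 and -0.42 (exact permutation adjusted p = 0.457 and 0.762), with too few units left for the test to pass 0.05. Leaving out each library in turn gave differences from -0.72 to -0.50 and from -0.57 to -0.38.

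Col6a3 per Col6a1 was 0.643, 0.546, 0.414, 0.425 and 0.594 in KO and 0.979, 0.732, 0.552, 0.646 and 0.895 in WT. The groups overlap slightly, and the difference in mean log2 ratio was -0.53 with 10 libraries (exact permutation p = 0.0317, adjusted p = 0.127) and -0.46 with 9 (exact permutation p = 0.0635, adjusted p = 0.254). Col4a1 per Col1a1, a ratio of basement membrane to fibril, ran from 0.102 to 0.259 in KO and was 2.69, 0.458, 0.19, 0.227 and 0.314 in WT. The difference was -1.29 with 10 libraries (exact permutation p = 0.0714, adjusted p = 0.19) and -1.42 with 9 (exact permutation p = 0.127, adjusted p = 0.339). Col3a1 per Col1a1 ran from 0.465 to 1.11, and to 2.46 in WT replicate 5, with a difference of -0.53 with 10 libraries (exact permutation p = 0.302, adjusted p = 0.603). Without that library it was -0.17 (exact permutation p = 0.603, adjusted p = 0.689).

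**Figure D5:**
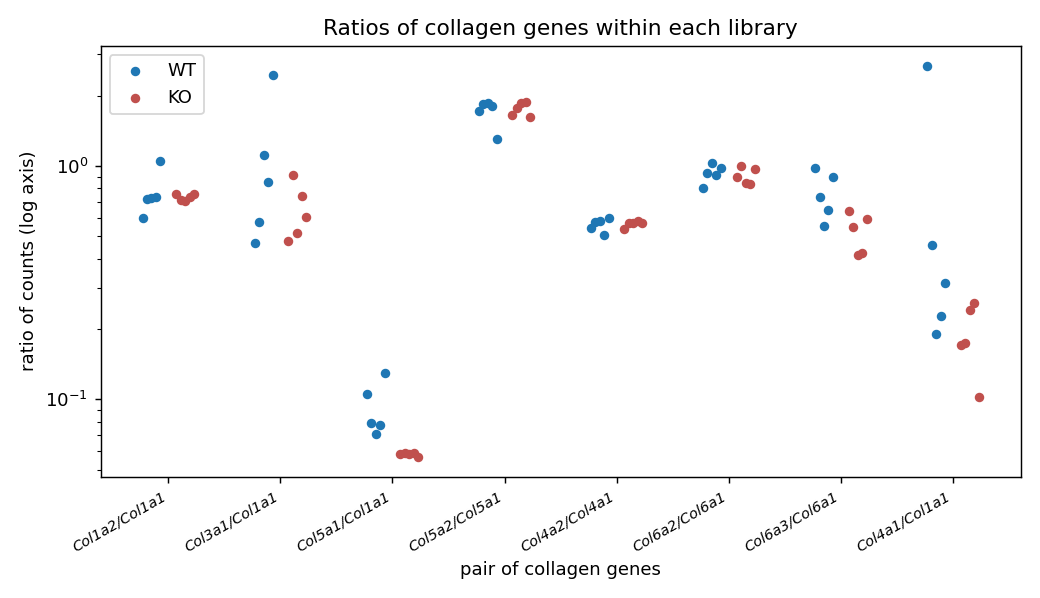
Ratio of counts (log axis) of 8 pairs of collagen genes in each WT (blue) and KO (red) library. The 5 KO points of Col5a1/Col1a1 fall between 0.0566 and 0.0589, below all WT points, and the ratio Col4a2/Col4a1 stays between 0.507 and 0.595 in both groups.

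After that result was seen, every gene was set against Col1a1 in the same way. With 10 libraries the ratio to Col1a1 was lower in every KO than in every WT library for 6 of the other 40 tested members, against 1.31% of all genes: Col5a1, Col5a2, Col5a3, Col6a3, Col15a1 and Col28a1. It was higher for 0 members and 0% of all genes. With 9 libraries it was lower for 7, against 4.78% of all genes, with Col9a1 added, and higher for 0, against 0.00526%. The level of Col5a2 per Col1a1 was 0.0961, 0.104, 0.108, 0.11 and 0.0916 in KO and 0.179, 0.146, 0.132, 0.14 and 0.168 in WT. Col5a3, the third type V chain, stood at 0.00898 to 0.0151 of Col1a1 in KO and 0.0256 to 0.13 in WT, and Col6a3 at 0.0568 to 0.0751 and 0.08 to 0.314. All 3 type V chains were thus lower per Col1a1 in knockout, although none of them passed the test on its own level. These ratios share Col1a1 as their denominator and so are not separate observations, and Col5a1 is the gene that prompted the comparison. Col1a1 was low in WT replicates 1 and 2 (70.8 and 558 CPM), which raises the ratio of every gene to it there. The counts of members beside the shares of all genes are therefore a description and not a test.

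Genes that make, export, crosslink and bind collagen were described from 5 lists of the pathway, and edgeR called 0 genes of each list with 10 and with 9 libraries. The counts at an unadjusted edgeR p under 0.05 that follow are to be read against 7% of all genes with 10 libraries and 11.6% with 9, and groups without overlap against 1.99% and 5.44%. Of 18 genes for hydroxylation and folding in the endoplasmic reticulum, 1 was under 0.05 in both fits. This was P3h4, a partner of the lysyl and prolyl hydroxylases, at 29.7, 23.9, 35.1, 23.6 and 30.7 CPM in KO and 17.5, 18.7, 18.7, 19.6 and 11.6 CPM in WT replicates 1 to 5. Every KO library was above every WT library, and the difference was 0.73 ± 0.19 on the log2 scale with 10 libraries and 0.64 ± 0.14 with 9 (edgeR adjusted p = 0.669 and 0.252).

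Of 12 genes for procollagen export and processing, 2 were under 0.05 in both fits. Mia3 (TANGO1), which loads procollagen into carriers that leave the endoplasmic reticulum, stood at 162, 155, 136, 189 and 162 CPM in KO and 132, 117, 126, 118 and 149 CPM in WT replicates 1 to 5. Its groups overlap through WT replicate 5 and did not without it, and the log2 difference was 0.33 ± 0.13 with 10 libraries and 0.40 ± 0.10 with 9 (edgeR adjusted p = 0.669 and 0.286). The coat protein gene Sec24d had 0.52 ± 0.19 and 0.44 ± 0.18 (edgeR adjusted p = 0.669 and 0.387).

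Of 6 crosslinking genes, 1 was under 0.05 in each fit, and it was not the same gene. With 10 libraries it was the transglutaminase Tgm2, at a log2 difference of -0.61 ± 0.23 (edgeR adjusted p = 0.669), which with 9 was -0.44 ± 0.20 (edgeR adjusted p = 0.439). With 9 libraries it was the lysyl oxidase Loxl4, at 1.25 ± 0.48 (edgeR adjusted p = 0.376), which with 10 was 0.70 ± 0.56 (edgeR adjusted p = 0.721). Lox itself was at 1.09 CPM in WT replicate 1 against 32.8 CPM or more in the other 9 libraries. None of 12 fibril-binding proteoglycan and glycoprotein genes was under 0.05 in either fit. Their median log2 fold change turned from -0.92 with 10 libraries to 0.28 with 9. It was positive for 3 of the 12 with 10 libraries (43.8% of all genes) and for 9 with 9 (53.2%). Thbs2, of lowest p with 9 libraries, had 0.98 ± 0.54 and 1.00 ± 0.59 with 10 and 9 libraries. Sparc had -0.11 ± 0.62 and 0.52 ± 0.53. Of 10 receptor and uptake genes, 1 was under 0.05 in both fits: Itga2, the collagen-binding integrin chain of epithelium and platelets, at 6.31, 12.3, 3.77, 11.7 and 8.27 CPM in KO and 14.7, 13, 28.6, 30.9 and 7.41 CPM in WT replicates 1 to 5. Its groups overlap through WT replicate 5 and did not without it, with log2 differences of -1.16 ± 0.45 and -1.35 ± 0.39 (edgeR adjusted p = 0.669 and 0.299).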

How the data were processed

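The authors deposited read counts per Ensembl gene, whole numbers without normalization, 1 column per library. FastQC, STAR, featureCounts, DESeq2 and the build GRCm39 are listed in the submitters' processing notes. For their versions, the annotation, the strand setting and multiply matching reads, nothing is given in the sources used here. Per the labels' protocols, RNA was poly(A) selected and libraries were stranded.

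Counts were tested in edgeR 4.0.16 (R 4.3.3; TMM, filterByExpr, robust quasi-likelihood fit), with a gene called where the Benjamini-Hochberg adjusted p was under 0.05. A standard error is the log2 fold change divided by the square root of F. Alternatives were RLE scaling, DESeq2 1.42.0, voom with quality weights (limma 3.58.1), no low-count filter, summing libraries that share a leading number (KO replicates 3 and 4, WT replicates 1 and 2, WT replicates 3 and 4), and leaving out each library. Lengths are those of the GENCODE M21 (GRCm38) transcript with the longest coding part. Ratios used a pseudocount of 0.5 counts. Only the edgeR, DESeq2 and limma-voom fits were tested on simulated data.

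Members, lists and tests were chosen with earlier results of these data known. Named members were the 3 most abundant of each class, those in a ratio and the 6 of lowest p in each fit, and of each pathway list up to 4 of lowest p. Other members were named after their values were seen. Symbols matched 52029 genes.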

Additional observations from a re-analysis of the deposited data

Results flagged for a closer look

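A library far from the rest of its group was found for 4 of 64 groups of values examined, where chance alone gives about 1 in 20. WT replicate 5 was far below the other wild-type libraries for Col4a5, at 13.6 CPM, and for Col9a1, at 6.67 CPM. It was also the lowest of its group for Col5a2 per Col5a1, at a ratio of 1.3. KO replicate 5 was the lowest of its group for Col5a1 per Col1a1, at 0.0566, although the whole range of that group is small (0.0566 to 0.0589).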

How the results depend on the processing

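The count of members called was 0 under every alternative except, in the 9 libraries, DESeq2 (1) and limma-voom with quality weights (1). With libraries summed by their leading number, the difference for Col4a2/Col4a1 (10 libraries) was -0.01. Leaving out each library in turn, differences in log2 ratio changed sign for Col1a2/Col1a1 (-0.12 to 0.08), Col5a2/Col5a1 (-0.04 to 0.09), Col4a2/Col4a1 (-0.02 to 0.04) and Col6a2/Col6a1 (-0.08 to 0.00, above 0 before rounding) with 10 libraries, and for Col3a1/Col1a1 (-0.37 to 0.05), Col4a2/Col4a1 (-0.00 to 0.06) and Col6a2/Col6a1 (-0.08 to 0.04) with 9. Log2 fold changes with 10 libraries that turned under limma-voom were those of Col16a1 (-0.33), Col20a1 (0.25), Col3a1 (0.05), Col5a1 (0.19), Col6a3 (0.15), Col6a5 (1.74) and Col9a1 (-0.08). Summed by number, those of Col17a1 (0.00), Col4a5 (0.20), Col5a2 (-0.04) and Col7a1 (0.05) turned, and without the filter Col5a1 (0.01). With 9 libraries, Col20a1 (0.28), Col4a1 (-0.13) and Col4a2 (-0.09) turned under limma-voom. Leaving out each library, those that turned with 10 libraries were Col16a1 (-0.13 to 0.29), Col17a1 (-0.48 to 0.79), Col3a1 (-0.79 to 0.34), Col4a1 (-0.28 to 0.15), Col4a2 (-0.29 to 0.19), Col4a5 (-0.49 to 0.05), Col5a1 (-0.35 to 0.46), Col5a2 (-0.23 to 0.38), Col6a2 (-0.07 to 0.59), Col6a3 (-0.43 to 0.41), Col6a5 (-0.53 to 1.93), Col7a1 (-0.32 to 0.29) and Col9a1 (-0.18 to 0.26), and with 9, Col15a1 (-0.64 to 0.19), Col17a1 (-0.85 to 0.44), Col3a1 (-0.06 to 0.95), Col4a1 (-0.03 to 0.36), Col5a2 (-0.00 to 0.81) and Col7a1 (-0.57 to 0.11). None of these folds passed the threshold, and the cause was not tested. The family's median ranged from -0.07 to 0.38 and from 0.03 to 0.64. For the rest, 221 values for single members kept direction and side and 2 crossed the threshold. No paired analysis was possible because the groups share no number in their library names. Counting noise limits members near 1 CPM, such as Col4a3.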
